A study of Mus musculus with 14 samples.

Results

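Retinoic acid and the kinase inhibitor LY294002 were compared directly in mouse embryonic stem (ES) cells after 48 h, on 4 of the 14 2-colour Agilent arrays of the series. The members were the 2 arrays of RA 48 h and the 2 arrays of LY294002 48 h, and the comparison covered all 42006 non-control probes. All 4 arrays carried RNA of MC1-ZE3, a subline of the 129/Sv ES cell line MC1. In both groups the cells were plated on gelatin in ES medium with LIF for 24 h. They then received 50 nM all-trans retinoic acid (RA) or LY294002 at 10 nM, the unit as the label writes it, for 48 h with fresh medium each day. The control day 3 group, also 2 arrays of MC1-ZE3, spent 3 days in the LIF medium without either agent, and its label adds the words growth factors. The remaining 8 arrays belonged to 4 other groups of 2: standard day 3 cultures and passage 10 cells after RA exposure, both MC1-ZE3, and colonies picked in 50 nM RA on day 4 (subline MC1-ZE16) or on day 7 (line MC1). The labels' extraction protocol speaks of picked and pooled colonies for the treated wells too. The labels do not say that the 2 arrays of a group are separate cultures, and the p-values thus rest on a spread between arrays that may be technical only.

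Retinoic acid, the active form of vitamin A, binds nuclear receptors (RAR with RXR) that sit on DNA and switch on genes such as those of the HOX clusters, and it is widely used to make ES cells differentiate. LY294002 blocks phosphoinositide 3-kinase (PI3K), which passes on signals from growth factor and cytokine receptors to AKT and mTOR. In mouse ES cells LIF holds the undifferentiated state mainly through STAT3, and PI3K signalling helps to maintain self-renewal. The 2 agents thus act on unrelated targets, and the direct contrast asks where cells differed by which agent they had received, with subline, medium and duration alike. The doses are not matched doses of related compounds, and a nanomolar dose of LY294002 is far below the micromolar doses at which it is usually used, so inhibition of PI3K in these wells is not known.

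Each array set the sample (Cy3) against a common reference (Cy5), an RNA pool of 11 cell lines mixed 2:1 with ES cell RNA, and a level here is the log2 ratio of sample to reference. The difference between 2 groups' levels is a log2 fold change. RA 48 h shared 1 slide with control day 3, and LY294002 48 h lay on another slide scanned on the same day, and in this contrast the slide cannot be told apart from the treatment. The share of probes well above background in Cy3 was 68.6% and 75.1% on the RA arrays and 68.8% and 65.7% on the LY294002 arrays, and no Cy3 spot was saturated on any of the 4. The number of arrays, 2 a group, limits the precision.

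The files used here give no gene for any probe, and a probe is therefore shown by its own 60-base sequence. The 4 sequences below are the 2 probes with the largest difference in each direction, and they are the data on which the extremes rest. They are written 5′ to 3′, and capitals mark AATAAA, the polyadenylation hexamer, where it occurs.
Z00034256-1 (RA higher): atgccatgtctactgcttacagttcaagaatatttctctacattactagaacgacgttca
Z00031029-1 (RA higher): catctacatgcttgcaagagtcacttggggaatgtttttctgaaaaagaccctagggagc
Z00075537-1 (LY294002 higher): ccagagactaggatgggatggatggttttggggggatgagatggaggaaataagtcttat
Z00070436-1 (LY294002 higher): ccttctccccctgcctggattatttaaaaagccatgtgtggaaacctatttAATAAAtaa

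The probe Z00034256-1 read 5.20 and 5.28 on the RA arrays, -2.82 and -2.69 on the LY294002 arrays, and 1.92 and 2.01 on the control day 3 arrays. It was thus far above the reference with RA and far below it with LY294002, with the control between them and no overlap of arrays. Its difference of 8.00 (SE 0.13, n = 2 a group) is a 255-fold higher level with RA, at an adjusted p of 2.1e-13 (limma, Benjamini-Hochberg over all tested probes). The probe Z00031029-1 had the same order, at 5.13 and 5.15 with RA, -2.60 and -2.75 with LY294002 and 2.25 and 2.29 in the control. It was 225-fold higher with RA (difference 7.81, SE 0.14, adjusted p 3.6e-13).

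In the other direction, Z00075537-1 read 2.63 and 2.78 with LY294002, -1.44 and -1.45 with RA, and 0.16 on both control arrays. Its level was 17.8-fold higher with LY294002 (difference -4.15, SE 0.09, adjusted p 1.2e-12), and the control again lay between the treatments. The probe Z00070436-1 read 2.27 and 2.37 with LY294002, -1.76 and -1.74 with RA and -0.22 and -0.26 in the control. It was 16.7-fold higher with LY294002 (difference -4.07, SE 0.09, adjusted p 1.3e-12). All 4 probes were well above background on every RA, LY294002 and control array. None of them shared 20 bases with another probe. Over the alternative settings the first pair stayed between 7.30 and 8.31 and the second pair between -4.68 and -4.02.

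**Figure D1:**
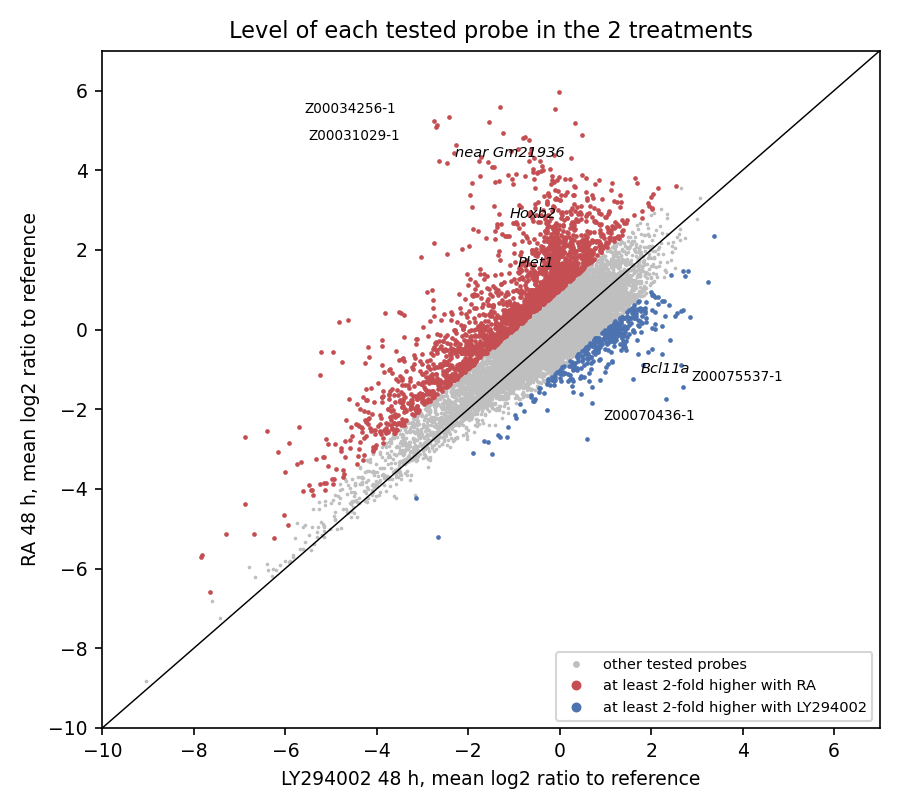
Mean log2 ratio to the reference with LY294002 (horizontal) and with RA (vertical), one point per tested probe, 2 arrays a group, with the line of equality. Red and blue points pass limma's threshold and differ at least 2-fold, and named points are probes described in the text. The 2294 red points reach much farther from the line than the 344 blue ones.

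Over the array, 16643 of the 31053 tested probes (53.6%) differed at an adjusted p under 0.05, with 9564 higher with RA (30.8%) and 7079 higher with LY294002 (22.8%). With a 2-fold difference also asked for, 2638 probes (8.5%) passed, of which 2294 were higher with RA (7.39%) and 344 with LY294002 (1.11%). The arrays of the groups did not overlap for 2293 of those 2294 probes and for 344 of 344, which the choice of these probes nearly fixes in advance. The remaining probe may overlap or lack a value on an array. The share without overlap over all tested probes was not counted. The difference ran from -4.15 to 8.00, with a median of 0.01 and quartiles of -0.19 and 0.32. Differences of at least 4-fold were found for 581 probes in favour of RA and 25 in favour of LY294002. At 16-fold there were 72 and 2 probes, at 32-fold 33 and 0, and at 128-fold 4 and 0. The extreme tail therefore lay with RA at each of these cut-offs under the loess scaling.

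The balance between the directions depended on how the arrays were scaled. When each array was only centred on its median, without loess, 1420 probes were at least 2-fold higher with RA and 1716 with LY294002, so the RA side held 45.3% of the 2-fold list where loess gave 87.0%. Among all calls, the RA side then held 32.3% in place of 57.5%. That centring moved the median difference over all tested probes from 0.01 to -0.12. Agilent's processed signals gave 3687 and 1726, also with a median of -0.12, and the sample channel alone gave 1697 and 684. No probe of either 2-fold list was called in the opposite direction under any of the settings compared. Of the 2294 RA-higher probes 1259 stayed called and at least 2-fold in all 5 scalings of the scanner signals (loess with offset 50 and with offset 10, median centring, Agilent's processed signals and Cy3 alone). Of the 344 LY294002-higher probes 327 did.

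**Figure D2:**
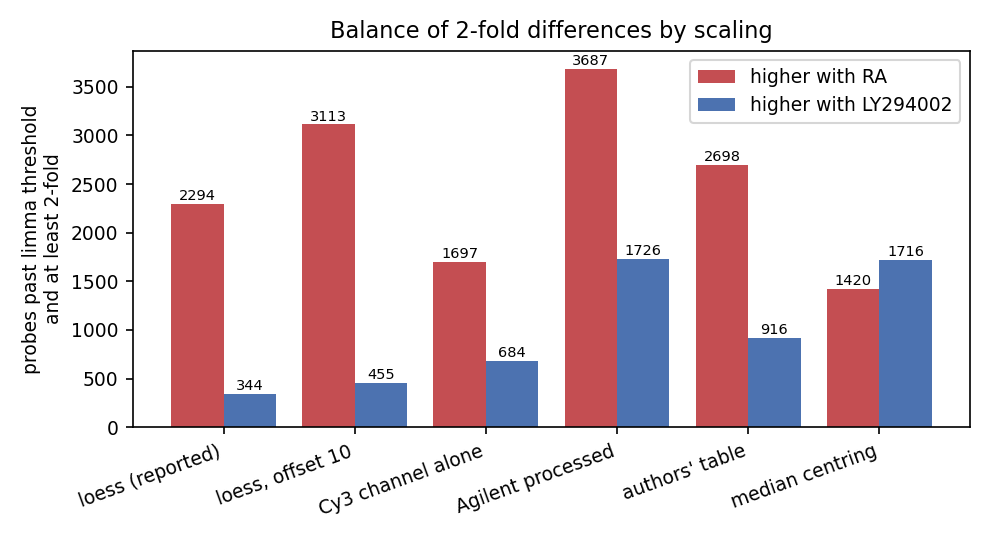
Number of probes past limma's threshold and at least 2-fold higher with RA (red) or with LY294002 (blue), vertical axis, under 6 scalings of the same arrays, horizontal axis. The authors' table holds 19083 of the tested probes and the other scalings 31053. RA leads in 5 of the 6 scalings, and median centring turns the balance to 1420 against 1716.

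Loess and median centring parted most on the brighter probes. Tested probes were split into 4 bins of nearly equal size by brightness. Brightness was the mean of log2 Cy3 and log2 Cy5 over the RA and LY294002 arrays. In the lowest bin, 229 probes were 2-fold higher with RA and 8 with LY294002 after loess, and 194 and 2 after median centring. In the third bin the counts were 822 and 139 after loess, and 456 and 706 after median centring. In the highest bin they were 464 and 111 after loess, and 222 and 856 after median centring. The median difference of that bin was 0.03 after loess and -0.48 after median centring, whereas in the lowest bin it was 0.00 and 0.12. Between these 2 scalings the RA-higher count thus changed most in the third bin, and the LY294002-higher count in the highest.

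The spread between the 2 arrays of a group was small beside the differences between the groups. The median absolute difference between the 2 arrays of a group was 0.061 for RA and 0.089 for LY294002, against 0.24 between the group means. The 2 arrays of a group shared a slide and the groups did not. The 0.061 and 0.089 thus hold no spread between slides. Of the 2294 RA-higher probes, 1964 were well above background on all 4 arrays. A further 235 were dim on both LY294002 arrays, so for these the fold is only a bound. On the LY294002 side 341 of 344 were bright on all 4 arrays and 2 were dim on both RA arrays.

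The common reference was the same RNA on each array, and its own channel was put through the same fit. For this the channel was scaled by quantiles between arrays, and not by loess within arrays. In Cy5 alone, 231 probes (0.744%) differed between the RA and LY294002 arrays, and 36 (0.116%) did so by at least 2-fold, 32 of them brighter on the RA arrays (0.103%) and 4 on the LY294002 arrays (0.0129%). All 32 also belonged to the probes at least 2-fold higher with RA in the log ratio, with differences from 1.20 to 6.89 (median 4.40). Among the 72 probes at least 16-fold higher with RA, the Cy5 signal was higher on the RA arrays by a median of 0.47. The log ratio is taken over Cy5, so by definition a higher Cy5 signal lowers it. The 2 extreme probes on the RA side had a mean log2 Cy5 of 11.0 and 11.4 with RA, and 10.4 and 10.6 with LY294002. The 2 on the LY294002 side had 11.4 and 13.4 with RA, and 11.9 and 13.6 with LY294002. These levels rest on loess within arrays with brightness then scaled between arrays, unlike the Cy5 fit. The cause of these Cy5 differences was not tested. Whether RNA of the sample channel reached the reference channel was not tested. The median absolute difference over all tested probes was 0.064 in Cy5 and 0.24 in the log ratio, under these unlike scalings. With the same quantile scaling as Cy5, Cy3 alone gave 16670 called probes.

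**Figure D3:**
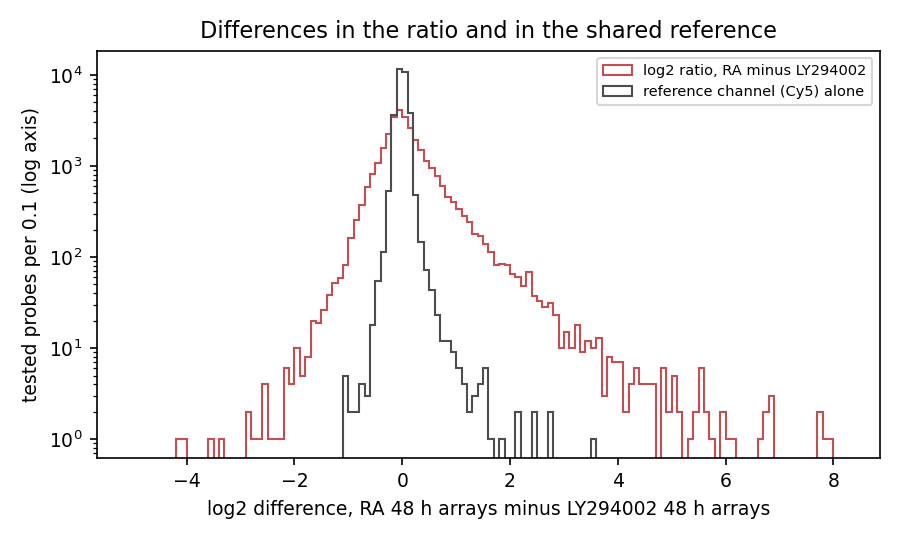
Number of tested probes (vertical, log axis) per 0.1 of log2 difference between the RA and LY294002 arrays (horizontal), for the log ratio (red) and for the reference channel alone (grey). The log ratio was scaled by loess within arrays and the reference channel by quantiles between arrays. The red distribution extends to 8.00 on the RA side and -4.15 on the LY294002 side, while most of the reference signal stays close to 0.

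The probes at the extremes were also followed in the other groups. The mean of control day 3 lay between RA and LY294002 for 43 (nearer RA) and 25 (nearer LY294002) of the 72 probes at least 16-fold higher with RA, and beyond RA or beyond LY294002 for 2 each. In the RA-higher 2-fold list it lay beyond RA for 550 and beyond LY294002 for 131 of 2293 probes, so a control between the treatments was not general. Over the 72 probes at least 16-fold higher with RA, the median level was 4.00 with RA, -1.32 with LY294002 and 1.72 in control day 3. The same probes had medians of 2.17 and 3.00 in day 4 and day 7 colonies picked in RA, 0.27 in standard day 3 cultures and 0.06 in passage 10 cells. By median, these probes were thus above the reference in the control and in the 3 RA groups, near it in standard day 3 and passage 10 cells, and below it with LY294002. The day 4 and day 7 colonies are of another subline and of the parent line, so RA cannot be told apart from the line there. Both control day 3 and standard day 3 are untreated, yet their medians for these probes were 1.72 and 0.27. All tested probes together had a median between -0.01 and 0.00 in each of the 7 groups, which loess within each array largely sets. The 72 probes were chosen on the RA and LY294002 arrays, so their order in those 2 groups is given by the choice and was not tested.

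The 25 probes at least 4-fold higher with LY294002 had a median level of 2.09 with LY294002, -0.62 with RA and 0.45 in control day 3. Their medians were 1.04 in standard day 3 cultures, 1.20 in passage 10 cells, -0.40 in day 4 colonies and -0.12 in day 7 colonies. Apart from the LY294002 arrays, the highest medians were those of standard day 3 and passage 10, and the lowest were those of the 3 groups in RA. The levels with LY294002 and RA 48 h are again given by the choice of the 25 probes, and the other 2 RA groups differ in line as well.

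**Figure D4:**
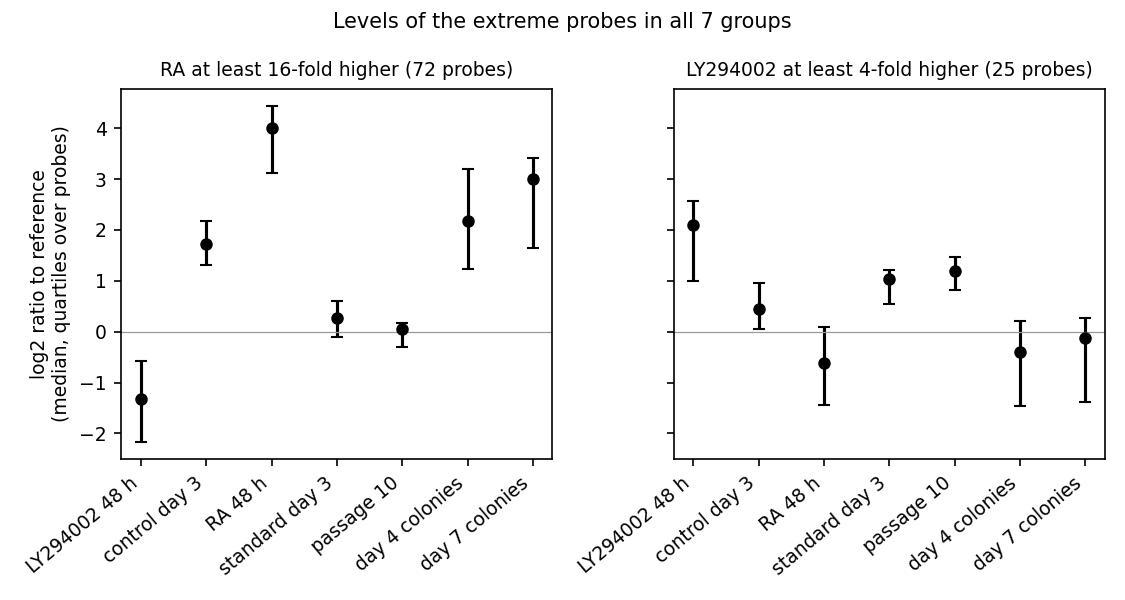
Median log2 ratio to the reference (vertical; bars are the quartiles over probes) in each of the 7 groups (horizontal, 2 arrays each), for the 72 probes at least 16-fold higher with RA (left) and the 25 at least 4-fold higher with LY294002 (right). On the left the control median of 1.72 lies between 4.00 with RA and -1.32 with LY294002.

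Many of the extreme probes followed one profile across the 10 arrays that were not compared here. Pearson's r to Z00034256-1 over those 10 arrays of 5 groups had a median of 0.96 among 71 other probes of the 16-fold list, and 49 of the 71 (69%) had an r above 0.9. In the whole RA-higher 2-fold list 14.2% of probes passed that mark, and among all tested probes 3.28% did. On the other side, 13 of 24 other probes of the LY294002 4-fold list (54.2%) had an r above 0.9 to Z00075537-1, against 3.2% of all tested probes. The 10 arrays are pairs from 5 groups and share slides and the reference, so these r are a description without a test.

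Probes that share sequence mostly gave like values. Tested probes were joined into a family where they shared at least 20 consecutive bases, which gave 896 families of 2 or more with 1994 probes. Of 129 families with a probe 2-fold higher with RA, all members were so in 98. Of 10 families with a probe 2-fold higher with LY294002, all members were so in 10, and 0 families held both directions. In the 804 families of exactly 2 probes the median absolute difference between the 2 was 0.054. Such probes can read the same transcript or near-identical copies of a gene, and the counts over probes are therefore not counts of genes.

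Of the 4 families with at least 4 probes of which at least 3 passed 2-fold, the one with the largest differences held 5 probes, all at least 2-fold higher with RA, with differences from 2.70 to 5.63 and a median of 5.43. Within it 2 probes differ at one base, shown in capitals, and the change from the first to the second is C44T, counted from 1 at the 5′ end.
First probe: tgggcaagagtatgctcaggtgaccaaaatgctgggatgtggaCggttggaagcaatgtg
Second probe: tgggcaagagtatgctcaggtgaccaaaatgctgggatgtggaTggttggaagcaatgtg

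The first read 4.76 and 4.77 with RA, -0.75 and -0.58 with LY294002, and 1.68 and 1.72 in the control (difference 5.43, SE 0.17, limma adjusted p 5.1e-11). The second read 4.85 and 4.82 with RA, -0.84 and -0.68 with LY294002, and 1.73 and 1.76 in the control (difference 5.59, SE 0.17, limma adjusted p 4.0e-11). The gap between their differences was smaller than the SE of either. A family of 8 probes was higher with RA throughout, by 1.74 to 2.18, and a family of 6 by 1.45 to 1.57. A family of 4 probes was higher with LY294002, by differences of -1.66 to -1.45.

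A few probes could be placed on the genome by their sequence alone. Of 42006 probes, 380 matched at least 40 of their bases, without a mismatch, in a RefSeq start-site window (250 bases before to 50 after each start, GRCm38), and 366 fell at a single position. Uniqueness was checked within the 32851 windows only, and the tables do not show whether a placed probe is exonic, intronic or in a UTR. A gene is named where the placed probe lay in the span of 1 gene not known to run on the opposite strand. The window itself can belong to another gene, whose transcript the probe may read. It was that of Plet1os for Plet1, 4930538E20Rik for Bcl11a, Gm31618 for Defb36 and Gm36266 for Fbxo24. For Slc22a20 it was that of Gm31719, for H2bc7 that of H2ac7 and for Gnl3 that of Pbrm1. This placement was made after the values had been seen. Of the 276 placed probes that were tested, 107 (38.8%) were called, against 53.6% of all probes, and their median difference was 0.01. Among them, 11 (3.99%) were at least 2-fold higher with RA and 1 (0.362%) with LY294002, against 7.39% and 1.11% of all probes. The placed probes are thus a small sample of the array with fewer calls, and all 12 with a 2-fold difference are described here. Under median centring 4 of the 12 fell below 2-fold: H2bc7 (0.81), H2bc11 (0.87), the first Rpl38 probe (0.74) and the probe near Gm46074 (0.95). Ntng1 did so in Cy3 alone (0.95) and without the second RA array (0.93). The 3 whose sequences follow are the placed probes with the largest differences in favour of RA. The Gm21936 probe lay wholly in its window and so at least partly before the start, and how far is not shown.
Upstream of Gm21936, chr12:87795362-87795421, + strand: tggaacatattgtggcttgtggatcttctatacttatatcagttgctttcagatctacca
Within Hoxb2, chr11:96353540-96353599, + strand: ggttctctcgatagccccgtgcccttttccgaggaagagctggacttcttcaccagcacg
Within Plet1, chr9:50505002-50505061, + strand: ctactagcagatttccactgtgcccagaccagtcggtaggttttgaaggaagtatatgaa

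Hoxb2 encodes a homeobox transcription factor of the HoxB cluster that helps to pattern the hindbrain, where HOX genes are classic targets of retinoic acid. Its probe read 2.62 and 2.66 with RA, -1.31 and -1.24 with LY294002, and -1.47 and -1.46 in control day 3. Only the RA arrays stood apart, and the control lay beside LY294002 and not between the treatments. The level was 15.1-fold higher with RA than with LY294002 (difference 3.92, SE 0.12, n = 2 a group, limma adjusted p 3.8e-11). Across the other groups the probe read 1.07 and 0.56 in day 7 colonies, -0.25 and -0.33 in day 4 colonies, and between -1.53 and -1.34 in standard day 3 and passage 10 cells. It was found in the start-site window of Hoxb3os, an RNA of the opposite strand, and the strand of Hoxb2 is not in the table used. Hoxb2 is the only placed member of the HOX list.

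Plet1, which encodes a surface protein of placental and epithelial progenitor cells, showed another order of groups. Its probe read 1.36 and 1.46 with RA and -1.11 on both LY294002 arrays, while the control arrays were the highest at 2.12 and 1.97. The 5.74-fold higher level with RA than with LY294002 (difference 2.52, SE 0.10, limma adjusted p 3.1e-10) thus went with a control above both. The probe in the Gm21936 window, assigned to no single gene, read 4.16 and 4.20 with RA, -2.55 and -2.40 with LY294002, and 1.98 and 1.93 in the control. It was 101-fold higher with RA (difference 6.65, SE 0.10, limma adjusted p 1.6e-13), and its order of groups was that of the 2 RA-higher extremes. Its Cy5 signal was also brighter on the RA arrays, at a mean log2 of 10.8 against 9.34 on the LY294002 arrays.

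Bcl11a was the only placed probe at least 2-fold higher with LY294002. Bcl11a encodes a zinc-finger transcription factor that represses genes in blood and brain development. The probe (chr11:24172868-24172927, + strand) read 1.58 and 1.61 with LY294002, -1.18 and -1.30 with RA, and -0.23 and -0.28 in control day 3. The level was 7.15-fold higher with LY294002 (difference -2.84, SE 0.13, limma adjusted p 1.6e-09), and the control lay between the treatments. It read -1.57 and -1.35 in day 4 colonies and -1.14 and -1.63 in day 7 colonies, both of which grew in RA but are of other lines (MC1-ZE16 and MC1). In standard day 3 and passage 10 cells it read between -0.40 and 0.20.

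**Figure D5:**
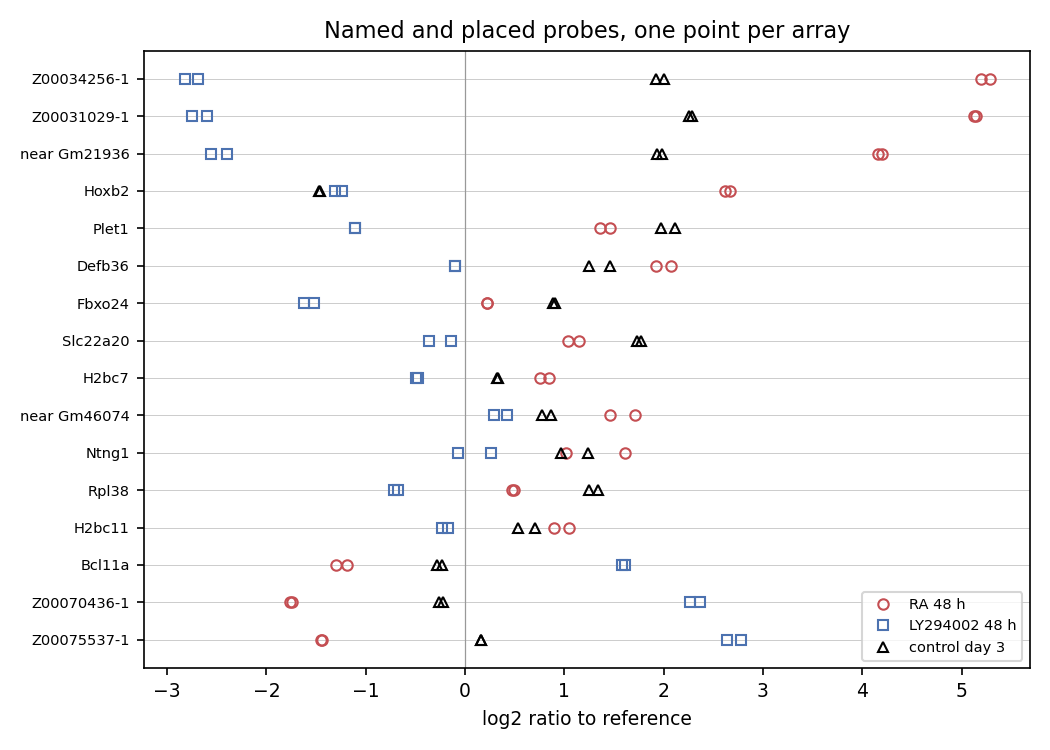
Log2 ratio to the reference (horizontal) of the 4 extreme probes and the 12 placed probes with a 2-fold difference (vertical), one symbol per array, for RA 48 h, LY294002 48 h and control day 3. Hoxb2 is high with RA alone, Plet1 is low with LY294002 alone, and the 4 extreme probes have the control between the treatments.

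The other placed probes with a 2-fold difference were all higher with RA and spread over unrelated functions. Fbxo24, an F-box protein, read 0.22 on both RA arrays, -1.62 and -1.52 with LY294002, and 0.88 and 0.90 in the control (difference 1.79, SE 0.06). Defb36, a beta-defensin, was not well above background on either LY294002 array, and its level was at least 3.7-fold higher with RA. Slc22a20, of the organic ion transporter family, was likewise dim with LY294002 and at least 2.46-fold higher with RA. These bounds set the mean Cy3 level of the RA arrays against a floor on each LY294002 array. The floor was the lowest signal counted as well above background, or the probe's own signal where that was higher. For Slc22a20 its own signal was used, so 2.46 is the fold between its Cy3 levels (mean log2 7.47 with RA, 6.17 with LY294002). The bounds hold only for the loess scaling with all arrays. The fitted difference for Defb36 was 1.58 in Cy3 alone, 1.80 with arrays centred on the median, and 4.59 in the processed signals. For Slc22a20 it was 1.04, 1.15 and 4.03 in the same settings, and 1.22 without the first LY294002 array. The control arrays read 1.46 and 1.25 for Defb36, between the treatments. For Slc22a20 they read 1.77 and 1.73, above the 1.03 and 1.14 with RA. Ntng1, a netrin-G1 adhesion protein of neurons, read 1.02 and 1.61 with RA, 0.26 and -0.07 with LY294002, and 0.97 and 1.24 in the control. Its difference of 1.22 (SE 0.19) had the widest error of the 12. A probe in the window of Gm46074, assigned to no single gene, differed by 1.23 (SE 0.10). Its control levels, 0.78 and 0.87, lay between the treatments.

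For 2 histone H2B genes, H2bc7 and H2bc11, the differences were 1.28 (SE 0.08) and 1.17 (SE 0.09). H2B genes are nearly identical to each other, and these probes may also read other members. Their control levels, 0.32 and 0.33 for H2bc7 and 0.71 and 0.53 for H2bc11, lay between the treatments.

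Rpl38, a protein of the large ribosomal subunit, had 2 placed probes whose starts lie 12 bases apart, and they disagreed on the size of the difference. One read 0.49 and 0.48 with RA and -0.67 and -0.72 with LY294002, a difference of 1.18 (SE 0.10). The other read 0.37 and 0.38 with RA and -0.06 and -0.22 with LY294002, a difference of 0.52 (SE 0.08, limma adjusted p 1.4e-04). Under median centring this second probe no longer passed (0.13, limma adjusted p 0.50). Both had control levels above both treatments, at 1.34 and 1.25 for the first and 1.56 and 1.53 for the second.

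The 21 gene lists chosen for this contrast (549 symbols) ran from pluripotency factors and HOX genes to FOXO targets and PI3K-AKT feedback genes. They could not be counted, since 0 symbols are probe names and 3 have a placed probe. For the same reason the ES cell identity of the samples could not be checked against its markers. Besides Hoxb2, these were Gnl3, which encodes the nucleolar GTPase nucleostemin, and Acta2, which encodes smooth muscle actin. The Gnl3 probe read 0.59 and 0.35 with RA and 0.08 and 0.30 with LY294002, a difference of 0.28 (SE 0.14, limma adjusted p 0.11). The Acta2 probe differed by -0.13 (SE 0.09, limma adjusted p 0.21) and was not well above background on any RA or LY294002 array. Both differences changed sign with the scaling.

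Base composition differed little between the lists. Mean GC content was 43.9% among RA-higher 2-fold probes, 44.6% among LY294002-higher ones and 45.1% among all tested. The hexamer AATAAA, read on the strand of the probe, occurred in 262 of 2294 RA-higher probes (11.4%), 22 of 344 LY294002-higher probes (6.4%) and 2293 of all 31053 (7.38%). Among the 1259 RA-higher probes of all 5 scalings it occurred in 166 (13.2%). The AU-rich motif ATTTA occurred in 7.28% of RA-higher, 4.65% of LY294002-higher and 6.94% of all tested probes.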

How the data were processed

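The deposited intensity values (mean signal and median background per spot, Agilent Feature Extraction 9.5.1.1) carry no normalization, per the file headers. The authors' value table holds log10 values of sample over reference for 25030 probes with a constant added per probe, whose origin and centring are unknown (column medians 2.32 for RA, 2.24 for LY294002). It matched the deposited log10 ratios after centring (r 0.99927 to 0.99997, 14654 probes). The array's genome build and aligner are not given in the sources used here.

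Signals were corrected with normexp (offset 50), normalized by loess within arrays (limma 3.58.1, R 4.3.3, statmod 1.5.0) and turned to log2 of sample over reference. A probe was tested if well above background in Cy3 on both arrays of at least 1 group: 31053 of 42006 (73.9%). All 14 arrays were fitted as 7 group means (residual degrees of freedom 7, prior 5.33). The contrast was tested two-sided with eBayes, and a probe was called at a p under 0.05 after Benjamini-Hochberg adjustment. The fit was tested on simulated data. Where a probe was dim on both arrays of one group, a lower bound replaced the fold.

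Genes were to be named as the 15 largest differences each way among probes with a gene, plus list members; with no gene names, the 2 largest each way are named by identifier. Placing probes in start-site windows, and naming the 12 that passed 2-fold and every placed list member, was added after the values were seen. Members, lists and tests were chosen with earlier results of these data known. Arrays of the contrast lay on 2 of the 6 slides, and the labels do not say that replicate numbers pair them. The r of same-numbered deviations was -0.056, which cannot show whether they do. Alternatives changed the scaling, the background offset, the filter, the arrays fitted and the blocks, and left out each array in turn.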

Additional observations from a re-analysis of the deposited data

How the results depend on the processing

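The count of called probes stayed within 1.5 times of 16643 in each setting, from 11393 in the authors' table (19083 probes) to 17723 with 6 arrays. The 2-fold counts moved with scaling: Agilent's processed signals gave 5413 in all, 3687 with RA higher and 1726 with LY294002 higher, and median centring gave 1420 and 1716. LY294002-higher probes numbered 684 in Cy3 alone and 916 in the authors' table. The cause was not tested. Leaving out 1 array in turn gave 13704 to 15035 calls, 2604 to 2775 of them 2-fold, 2199 to 2416 with RA higher and 353 to 405 with LY294002 higher. The replicate block on 6 arrays gave 17113 calls and 2637 past 2-fold, against 17723 and 2636 without it, and the replicate numbers carry no known pairing. With the slide as a random block there were 16962 calls, and the 2-fold counts did not move. That block leaves the fitted differences as they were. Each treatment lay on its own slide, so the block cannot show or remove a slide effect in this contrast. Aquantile leaves log ratios, and so these counts, as they were. Gnl3 turned to -0.065 and Acta2 to 0.0076 under median centring, and Acta2 to 0.049 in Cy3 alone; Gnl3 passed with 6 arrays (0.28, limma adjusted p 0.049, against 0.049 to 0.84 over its alternatives). For single probes, 288 alternative values kept direction and call, 3 changed sign, 1 gained the call and 1 lost it. The gene lists were not computed. Probes dim on both arrays of a group have a bound only.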
